A study of Mus musculus with 6 samples.

Results

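The genes described here are 8 transcripts that glucocorticoid hormones are known to raise in many tissues (Fkbp5, Tsc22d3, Per1, Zbtb16, Klf15, Klf9, Sgk1 and Ddit4) and the metallothioneins Mt1 and Mt2. They are listed by name, with no threshold on their values, and they are 10 of the 33919 genes in the deposited table. All 10 were among the 16620 genes that passed the filter on low counts. The libraries came from mouse aorta by their labels. There were 3 from wild-type mice (WT) and 3 from knockout mice (KO), and every mouse of both groups received Ang II (angiotensin II), the hormone of the renin system that narrows vessels and, over time, thickens their walls. OTUD1, a deubiquitinating enzyme, is named in the series title, which places it in the endothelium. The labels say only KO: the allele, any Cre driver, the strain, sex and age of the mice and the dose and length of the Ang II treatment are not among the details in the sources used here. No library without Ang II was analysed here, so each comparison is between genotypes under treatment. The design text speaks of 3 mice a group, and the labels carry no animal identifiers, so a p-value covers only the spread from library to library, which may be technical.

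Glucocorticoids, of which corticosterone is the main one in mice, cross the cell membrane and bind the glucocorticoid receptor, the product of Nr3c1. The receptor waits in the cytoplasm in a complex with HSP90 and its partner proteins. Once bound it enters the nucleus, pairs up on glucocorticoid response elements in DNA and raises or lowers the transcription of nearby genes. Metallothioneins are small, cysteine-rich proteins that hold zinc and copper ions. Their genes are known to respond to zinc through the factor MTF1, which binds metal response elements, and also to glucocorticoids and to inflammatory cytokines.

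Before the members are described, several facts about the libraries bear on them. Total counts were 62.3 M to 71.5 M per library (M, megacounts), but mitochondrial genes and their copies on chromosome 1 took 71.1% to 73.8% of the counts under the WT label and 64.8% to 67.8% under the KO label. That left 17.3 M to 19.4 M counts for all other genes in the first group and 23.0 M to 23.4 M in the second. Low counts were multiples of 4 more often (33.0% to 34.9% of the values from 1 to 40) than the 25% of even spacing, and counts were not taken as independent molecules. Otud1, the gene named in the title, had 593, 699 and 615 counts under the WT label and 1033, 1141 and 1223 under the KO label, a log2 change of 0.63 (SE 0.12, edgeR adjusted p = 0.00388) toward the knockout label. The higher count goes against the label, the deleted stretch of the gene is not stated in the sources used here, and the groups are therefore called by their labels throughout. Skeletal muscle markers summed to 29738 to 30182 CPM (counts per megacount of library) under the WT label and 36287 to 37530 CPM under the KO label, while 10 smooth muscle markers, among them Acta2 and Myh11 of the arterial wall, summed to 670 to 671 CPM and 222 to 227 CPM. The label aorta thus stands beside RNA in which skeletal muscle transcripts far outweighed those of smooth muscle, more so under the KO label. In bulk tissue, fewer cells of a type and less RNA per cell cannot be told apart.

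Both metallothioneins, Fkbp5, Zbtb16 and Klf15 were higher under the KO label, and Sgk1 was lower. Per1, Klf9, Tsc22d3 and Ddit4 did not pass the test. A gene was called when its adjusted p, from edgeR's quasi-likelihood test with Benjamini-Hochberg adjustment over 16620 genes, was under 0.05. Of the 10 members 5 were called higher, where 11.5% of all tested genes were, and 1 was called lower, where 10.5% were. In either direction 6 of 10 members were called, where 22% of all genes were, and 6 were called also when mitochondrial genes and their copies were removed before scaling. The members' median log2 change was 0.41, and the median of all tested genes was -0.02. The CPM of all 3 libraries labelled KO lay above all 3 labelled WT for 6 members, where this held for 19.3% of all genes. The reverse held for 1 member, where it held for 19.4%, and 3 members overlapped. Since the members were chosen with results of these libraries known, these counts are a description and carry no test of the set.

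**Figure D1:**
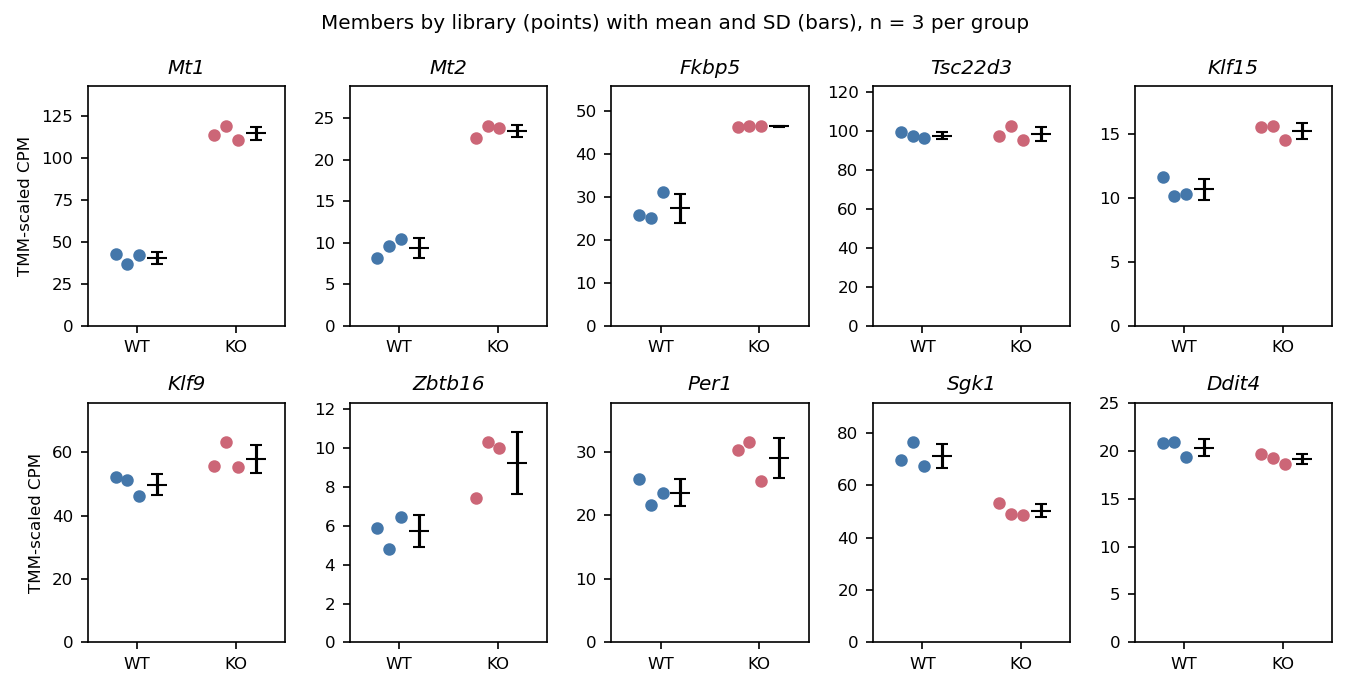
CPM of the 10 members after TMM scaling (trimmed mean of M values), with 1 panel a gene, 1 point a library, and the group mean with its SD (n = 3); each axis starts at 0. The points of Mt1, Mt2, Fkbp5, Zbtb16, Klf15 and Klf9 are separate with KO above, those of Sgk1 are separate with KO below, and those of Per1, Tsc22d3 and Ddit4 overlap.

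Mt1 and Mt2, the metal-binding members, had the highest log2 changes of the set. Mt1 (ENSMUSG00000031765, chromosome 8, 94179082 to 94180327, plus strand, GRCm38) had 42.9, 36.7 and 42.4 CPM under the WT label and 114, 119 and 111 CPM under the KO label. The lowest KO library lay far above the highest WT library. Its log2 change was 1.5 (SE 0.070, 2.82-fold higher, edgeR adjusted p = 1.36e-07), and 98.3% of all tested genes had a lower change. Mt2 (ENSMUSG00000031762, chromosome 8, 94172664 to 94173568, plus strand), its neighbour, had 8.12, 9.57 and 10.5 CPM against 22.6, 24.1 and 23.7 CPM. Again the groups were apart, and the log2 change was 1.32 (SE 0.11, 2.50-fold higher, edgeR adjusted p = 1.1e-05). Without any 1 library the log2 change of Mt1 stayed between 1.43 and 1.54 and that of Mt2 between 1.23 and 1.41. Mt2 overlaps Gm45774 in the annotation, which had 57, 22 and 64 counts and 39, 71 and 121 counts, against 545 to 656 and 1611 to 1758 counts for Mt2. The sources used here do not say whether counting used strand or how reads matching both metallothioneins were assigned, so reads of Mt2 and Gm45774 cannot be told apart.

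Level per gene length was read from the deposited FPKM (fragments per kilobase of gene and per megacount), the scale used here for comparing genes with each other. Mt1 stood at 28.1 ± 3.43 FPKM (SD, n = 3) under the WT label and 87.9 ± 4.62 FPKM under the KO label. Mt2 stood at 13.7 ± 2.18 and 38.0 ± 0.597 FPKM. The sum of both was 41.8 ± 4.66 FPKM and 125.9 ± 5.17 FPKM with no overlap (2-sided exact permutation p = 0.1, the smallest that 3 against 3 allows). The ratio of Mt1 to Mt2 was 2.49, 1.81 and 1.91 under the WT label and 2.38, 2.34 and 2.21 under the KO label. These ratios overlapped (2.07 ± 0.369 against 2.31 ± 0.0900, SD, n = 3). Metallothioneins were 14.0% ± 0.944 of the members' summed CPM under the WT label and 29.8% ± 0.231 under the KO label. The sum over all 10 members was 1.30 times as high under the KO label (464.1 ± 16.1 against 356.2 ± 5.02 CPM), and without Mt1 and Mt2 it was 1.06 times as high (325.8 ± 11.8 against 306.2 ± 5.47 CPM).

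The start regions of the pair are shown because the known control of these genes runs through short DNA elements there. RefSeq windows (GRCm38.p6) run from 250 bases before to 50 bases after a transcript's start and were found for 9 of the 10 members, 17 windows in all, since some genes have several starts. Zbtb16 had none in the table used. Both strands were searched for the core of the metal response element (TGCACNC or TGCGCNC). In the first 270 bases of each window, printed on the plus strand with matches to that core in capitals, Mt1 (chr8:94178839-94179108) and Mt2 (chr8:94172368-94172637) read:
Mt1: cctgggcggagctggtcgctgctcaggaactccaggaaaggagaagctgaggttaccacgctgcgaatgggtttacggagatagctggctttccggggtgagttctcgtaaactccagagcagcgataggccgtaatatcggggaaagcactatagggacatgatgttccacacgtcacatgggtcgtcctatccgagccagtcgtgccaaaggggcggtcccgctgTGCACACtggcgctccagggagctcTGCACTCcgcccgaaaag
Mt2: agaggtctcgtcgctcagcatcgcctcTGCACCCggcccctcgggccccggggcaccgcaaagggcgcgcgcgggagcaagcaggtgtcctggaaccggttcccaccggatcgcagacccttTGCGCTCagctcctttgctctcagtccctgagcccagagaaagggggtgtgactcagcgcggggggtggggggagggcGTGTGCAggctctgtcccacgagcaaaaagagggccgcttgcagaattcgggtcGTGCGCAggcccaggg
Mt2 held 4 matches, beginning at bases -223, -128, -50 and 4 from the RefSeq start (the start base being 0). Mt1 held 3, beginning at -23, 2 and 20, the last of which lies past the printed stretch. Of 32851 windows of the same length 25.7% held at least 1 match and 1.97% held 3 or more. Single matches also lay in windows of Klf15, Per1, Sgk1 and Ddit4. A match is a string of letters and no measured binding site, and no binding data were analysed here. The deposited gene begins 46 bases after the RefSeq start for Mt2 and 7 bases before it for Mt1.

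**Figure D2:**
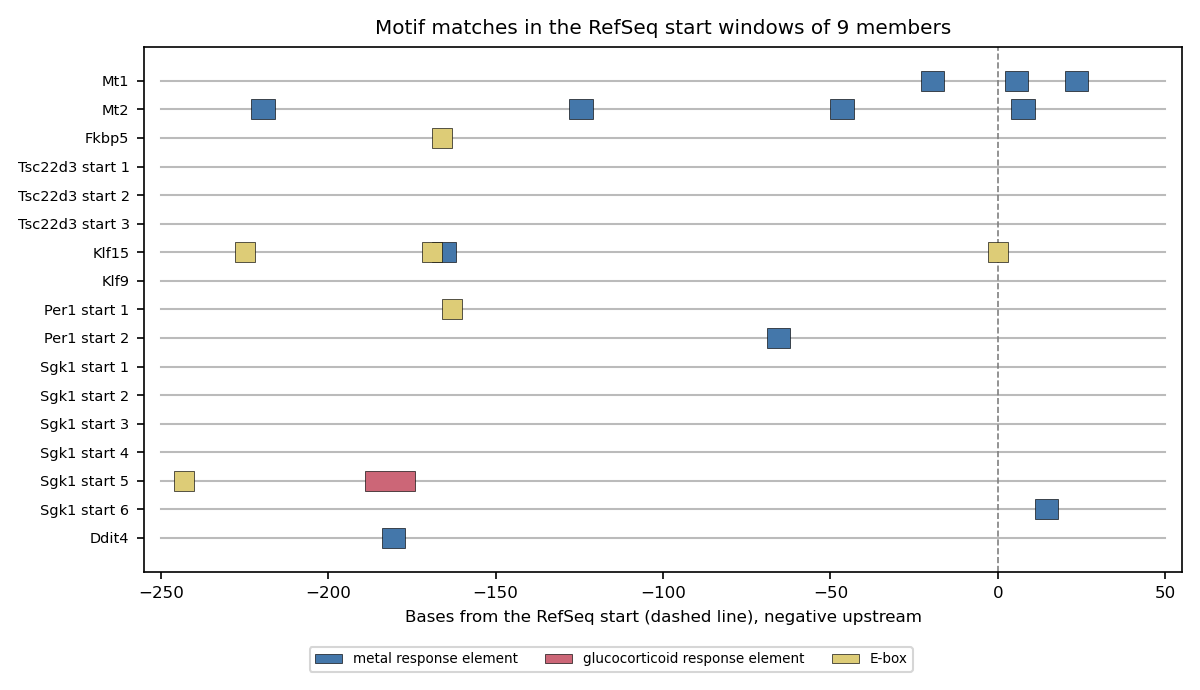
Matches to 3 motifs in 17 RefSeq start windows of 9 members; the horizontal axis is distance in bases from the RefSeq start, each grey line is 1 window and each block 1 match drawn to scale. Mt2 holds 4 and Mt1 holds 3 metal response element cores, Klf15 holds 3 E-boxes, and the single glucocorticoid response element is in a window of Sgk1.

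Fkbp5 encodes FKBP51, a co-chaperone that sits on the HSP90 complex and lowers the affinity of the glucocorticoid receptor for its hormone, so that its induction acts as a brake on the receptor. Fkbp5 (ENSMUSG00000024222, chromosome 17, 28399094 to 28517527, minus strand) had 25.8, 25.2 and 31.3 CPM under the WT label and 46.4, 46.6 and 46.6 CPM under the KO label. The KO libraries lay within 1 CPM of each other and above every WT library. The log2 change was 0.76 (SE 0.089, 1.70-fold higher, edgeR adjusted p = 0.000128). Leaving out any 1 library gave 0.70 to 0.87 with an adjusted p of at most 0.0014. In FPKM it went from 2.50 ± 0.423 to 4.69 ± 0.161 (SD, n = 3), so that it remained among the members with low levels in both groups. The annotation places 4 predicted genes within or across Fkbp5, and reads in the shared stretches cannot be told apart without strand.

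Tsc22d3 encodes GILZ, a leucine-zipper protein that carries part of the anti-inflammatory action of glucocorticoids. Tsc22d3 (ENSMUSG00000031431, chromosome X, 140539528 to 140600659, minus strand) had 99.5, 97.3 and 96.2 CPM under the WT label and 97.5, 102.5 and 95.1 CPM under the KO label. The groups overlapped fully. Tsc22d3 had a log2 change of 0.01 (95% interval -0.10 to 0.12, edgeR adjusted p = 0.916), and its sign turned under 3 alternative settings. Its interval lies below the change fitted for Fkbp5. Per length it lay second under the WT label (19.3 ± 0.819 FPKM) and below both metallothioneins under the KO label (21.6 ± 1.2 FPKM).

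Klf15, Klf9, Zbtb16 and Per1 encode DNA-binding or transcriptional regulators. Klf15 is a Krüppel-like factor known in muscle for amino acid and lipid use. Klf15 (ENSMUSG00000030087, chromosome 6, 90462576 to 90475238, plus strand) had 11.6, 10.1 and 10.3 CPM under the WT label and 15.5, 15.6 and 14.5 CPM under the KO label. The groups were apart, with a log2 change of 0.51 (SE 0.10, 1.43-fold higher, edgeR adjusted p = 0.00449), and the call held in all 17 alternative settings. Its FPKM was 3.27 ± 0.287 and 5.19 ± 0.352 (SD, n = 3). The start window of Klf15 is shown for its E-boxes, the letters CACGTG that clock proteins and other helix-loop-helix factors bind, in capitals (chr6:90462326-90462595, plus strand, GRCm38.p6):
Klf15: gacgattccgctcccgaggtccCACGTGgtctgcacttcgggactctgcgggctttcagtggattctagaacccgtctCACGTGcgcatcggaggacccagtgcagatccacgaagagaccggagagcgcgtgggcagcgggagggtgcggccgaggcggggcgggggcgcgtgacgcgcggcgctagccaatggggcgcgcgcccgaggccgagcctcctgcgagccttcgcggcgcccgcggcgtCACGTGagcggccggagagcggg
Klf15 held 3 of them, beginning at -228, -172 and -3. Among all windows 7.15% held 1 or more and 0.0883% held 3 or more. Per1, Fkbp5 and Sgk1 each had 1 window with 1 E-box. The metal response element core found in Klf15 overlaps its E-box at -172.

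Klf9, a related factor that is known to respond directly to the receptor, had a smaller change that did not pass the test. Klf9 (ENSMUSG00000033863, chromosome 19, 23141226 to 23168134, plus strand) had 52.1, 51.2 and 46.1 CPM under the WT label and 55.5, 63.0 and 55.3 CPM under the KO label. The groups did not overlap, but the gap between them was small. The log2 change was 0.22 (SE 0.076, 95% interval 0.05 to 0.39) and the edgeR adjusted p was 0.0636. DESeq2 gave an adjusted p of 0.00539, and over all alternatives the value ran from 0.00539 to 0.245. The level in FPKM was 8.87 ± 0.324 and 11.5 ± 0.857.

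Zbtb16 encodes PLZF, a zinc-finger repressor of the BTB family. Zbtb16 (ENSMUSG00000066687, chromosome 9, 48654297 to 48836222, minus strand) had the lowest FPKM of the members in both groups. It had 5.91, 4.82 and 6.47 CPM under the WT label and 7.41, 10.3 and 10.0 CPM under the KO label. The first KO library lay close to the WT libraries and the other two stood apart. The log2 change was 0.69 (SE 0.17, 1.61-fold higher, edgeR adjusted p = 0.0138). The call was lost without WT replicate 2 (adjusted p = 0.0545), without KO replicate 2 (0.0629) and without KO replicate 3 (0.0549), and in the limma fit to log2(FPKM + 1) with no filter (0.0533). In those fits the log2 change was 0.46 to 0.63. Its FPKM was 0.935 ± 0.181 and 1.66 ± 0.237 (SD, n = 3).

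Per1 belongs to both the glucocorticoid response and the circadian clock, in which it is a repressor of CLOCK and BMAL1. Per1 (ENSMUSG00000020893, chromosome 11, 69095217 to 69109960, plus strand) had 25.7, 21.5 and 23.4 CPM under the WT label and 30.2, 31.4 and 25.4 CPM under the KO label. KO replicate 3 lay within the WT range. The log2 change was 0.30 (SE 0.10, 95% interval 0.07 to 0.53, edgeR adjusted p = 0.0627). DESeq2 gave an adjusted p of 0.00606 and leaving out KO replicate 3 gave 0.0289, while over all alternatives it reached 0.212. The level in FPKM was 3.60 ± 0.400 under the WT label and 4.92 ± 0.649 under the KO label (SD, n = 3).

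Sgk1 was the 1 member that fell. It encodes a kinase activated downstream of PI3K that is known for promoting sodium uptake, and both the glucocorticoid and the mineralocorticoid receptor raise it. Sgk1 (ENSMUSG00000019970, chromosome 10, 21882184 to 21999893, plus strand) had 69.8, 76.3 and 67.2 CPM under the WT label and 53.3, 49.0 and 48.6 CPM under the KO label. Every KO library lay below every WT library. The log2 change was -0.50 (SE 0.068, 1.41-fold lower, edgeR adjusted p = 0.000405), and 20.6% of all tested genes had a lower change. Without any 1 library the change was -0.54 to -0.45. Per length it had 12.4 ± 0.321 and 9.79 ± 0.866 FPKM (SD, n = 3). Fkbp5 and Sgk1 had calls in opposite directions, and the ratio of their CPM, given as a description, was 0.369, 0.331 and 0.465 under the WT label and 0.871, 0.951 and 0.958 under the KO label.

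Among the 17 windows the palindromic glucocorticoid response element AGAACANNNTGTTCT, searched on both strands, was found only in Sgk1. That window belongs to the fifth of the RefSeq starts of Sgk1 in genome order, and 3 of all 32851 windows (0.00913%) held these letters. The first 270 bases (chr10:21993640-21993909, plus strand, GRCm38.p6) are shown with the element in capitals, beginning at base -189:
Sgk1: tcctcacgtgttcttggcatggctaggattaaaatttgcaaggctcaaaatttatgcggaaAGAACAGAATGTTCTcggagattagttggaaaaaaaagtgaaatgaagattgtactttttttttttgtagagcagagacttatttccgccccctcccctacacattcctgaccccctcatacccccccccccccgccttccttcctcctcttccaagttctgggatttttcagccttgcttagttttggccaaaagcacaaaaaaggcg
The counts do not separate the starts of Sgk1, so no value here belongs to this start alone. No match elsewhere says only that these letters are not in those windows, since many known elements lie far from a start or differ by some letters.

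Ddit4 encodes REDD1, an inhibitor of the growth kinase mTOR that glucocorticoids, low oxygen and energy stress are known to raise. Ddit4 (ENSMUSG00000020108, chromosome 10, 59949669 to 59951834, minus strand) had 20.8, 20.9 and 19.3 CPM under the WT label and 19.6, 19.3 and 18.6 CPM under the KO label. The groups overlapped. On the log2 scale the change was -0.08 (95% interval -0.27 to 0.10, edgeR adjusted p = 0.55), and it was above 0 in the limma fits to FPKM. Its FPKM was 9.93 ± 0.169 and 10.4 ± 0.649 (SD, n = 3).

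The deposited FPKM placed the members somewhat higher under the KO label than the CPM did. For each member the fold in FPKM was 1.1 to 1.11 times the fold in CPM, for example 3.13 against 2.82 for Mt1 and 0.788 against 0.708 for Sgk1. On this scale the KO libraries lay above all WT libraries for 8 members, where this held for 26.8% of all tested genes, and below them for 1 member, Sgk1, where it held for 12.8%. Tsc22d3 and Per1 joined the separate ones. The median of all genes lay higher as well: in limma on log2(FPKM + 1) the median change of all genes was 0.112, and 76.8% of called genes were higher under the KO label, against 52.1% with counts and TMM scaling. Mt1, Mt2, Fkbp5, Klf15 and Sgk1 kept their direction and call under both scales, while Tsc22d3 and Ddit4 had no stable sign.

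**Figure D3:**
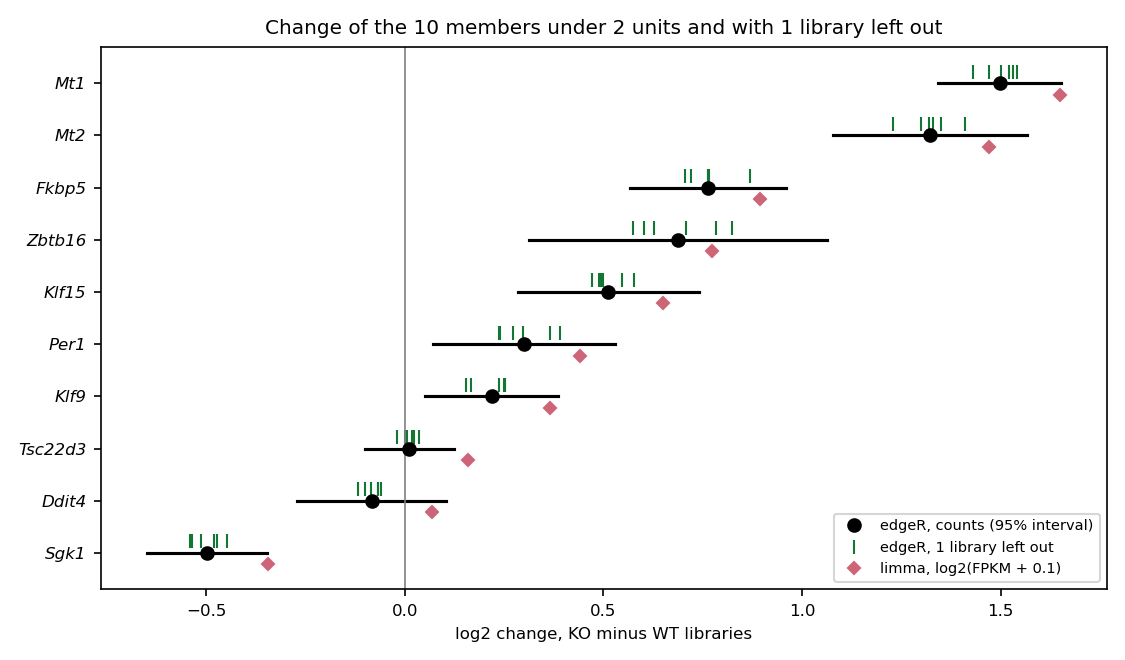
Log2 change of each member, KO minus WT libraries, from edgeR on counts with its 95% interval. Also drawn are the changes from limma on log2(FPKM + 0.1) and from the 6 edgeR fits that leave out 1 library. Mt1 and Mt2 lie above 1 in the edgeR fits, Sgk1 lies below 0 throughout, and the points of Tsc22d3 and Ddit4 straddle 0.

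By FPKM the order under the WT label was Mt1, Tsc22d3, Mt2, Sgk1, Ddit4, Klf9, Per1, Klf15, Fkbp5 and Zbtb16. The ranges of Mt2 and Sgk1 overlapped, as did those of Per1 with Klf15 and of Klf15 with Fkbp5, and the other neighbours were apart. Under the KO label Mt2 stood second and above Tsc22d3. Klf9, Ddit4 and Sgk1, in that order, overlapped with their neighbours, so Sgk1 went from a place above Ddit4 and Klf9 to one not separate from them. Klf15, Per1 and Fkbp5 overlapped in the same way, and Zbtb16 was the lowest in both groups.

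The receptor, its chaperones and cofactors, and genes that supply, carry or export its hormone did not all go the same way. Of 17 genes on this list 15 were tested, 5 were called higher and 3 lower, and the median log2 change was 0.13. Of all tested genes 11.5% were called higher and 10.5% lower. Nr3c1, the receptor itself, had 31.4, 31.5 and 29.2 CPM under the WT label and 22.6, 21.7 and 23.9 CPM under the KO label. This was a fall of 1.35-fold with the groups apart (log2 change -0.43, SE 0.080, edgeR adjusted p = 0.0028). It missed the threshold in the limma fits to FPKM (adjusted p 0.0507 to 0.0622), in which 1 gene of the list was called lower. Hsd11b1, the enzyme that turns inactive 11-dehydrocorticosterone back into corticosterone inside cells, had 6.52, 7.14 and 5.59 CPM against 12.4, 15.4 and 16.7 CPM. It rose 2.31-fold (log2 change 1.21, SE 0.14, edgeR adjusted p = 0.00015). Abcb1a, a pump that exports steroids among other compounds, rose by a log2 change of 1.34. Nr3c2, the mineralocorticoid receptor, had a log2 change of 0.32 that did not pass (edgeR adjusted p = 0.248). Hsd11b2, which inactivates corticosterone, and Serpina6, which carries it in blood, did not pass the count filter.

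The chaperones of the receptor complex, which are on the same list, split. Hsp90ab1, the constitutive HSP90, rose (log2 change 0.35), as did Stip1 (0.62), which links HSP70 to HSP90, and Fkbp4 (0.29), a co-chaperone that competes with the product of Fkbp5. Hsp90aa1, the inducible HSP90, fell by 0.60 on the log2 scale and Ptges3, the co-chaperone p23, fell by 0.35. The call for Fkbp4 was lost without WT replicate 1 (adjusted p = 0.0533), and that for Ptges3 without WT replicate 2, KO replicate 1 or KO replicate 3 and in the FPKM fits. Hspa8 (0.03), H6pd (0.04), Ncor1 (0.13), Nrip1 (0.17), Ncoa1 (-0.11) and Ncoa2 (-0.40) did not pass.

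Of 30 other genes that glucocorticoids are known to induce, 29 were tested, with 8 higher, 5 lower and a median log2 change of 0.08. Lcn2, a siderophore-binding protein of inflamed tissue, had the largest change among those named, from 1.21, 1.31 and 0.815 CPM to 9.65, 7.66 and 8.39 CPM (log2 change 2.94, SE 0.22, edgeR adjusted p = 4.53e-06). Fbxo32, a ubiquitin ligase of muscle wasting, rose 2.41-fold, from 20.9 ± 3.12 to 50.5 ± 1.09 CPM (SD, n = 3). Arrdc2, an arrestin-domain protein, rose 1.86-fold. Glul, glutamine synthetase, rose 1.47-fold, from 168 ± 4.84 to 246 ± 5.13 CPM. In the limma fits to FPKM the number lower was 3.

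The other genes that handle zinc and copper were read next. Of 23 listed genes 21 were in the deposited table and 20 were tested. Of these 1 was higher and 1 lower (22% of all tested genes were called in either direction), with a median log2 change of 0.01. Without WT replicate 2, 0 were higher and 3 were lower. Slc39a14, a zinc and iron importer known to be raised in inflammation, was called higher (log2 change 0.76, edgeR adjusted p = 0.0432), and that call was lost without WT replicate 2 or any 1 of the KO replicates and with no count filter. Slc39a6, another importer, fell by 0.93 on the log2 scale. Mtf1, the metal-sensing factor (-0.26, edgeR adjusted p = 0.582, above 0 without WT replicate 3), and Slc30a1, a zinc exporter that is a classic MTF1 target (0.20, adjusted p = 0.52), did not pass. Slc30a2, a vesicular zinc transporter that zinc also raises, had 0.824 ± 0.111 and 1.64 ± 0.118 CPM (log2 change 0.99, edgeR adjusted p = 0.065). Mt3, the brain-type metallothionein, had 16, 10 and 23 counts against 18, 15 and 3, too few for its interval (-2.67 to 1.42) to speak of a direction. Mt4 was not found by name in the deposited table.

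The neighbouring pathways of single members gave mixed counts. Among 18 clock genes beside Per1, 4 were called higher and 3 lower, with a median log2 change of 0.09. The shares over all tested genes were 11.5% and 10.5%. Hlf, a clock-output factor, fell by 1.2 on the log2 scale, Nr1d1 (REV-ERB alpha) by 0.67 and Clock by 0.52. The number of clock genes higher was 1 without WT replicate 1 or without KO replicate 1 and 2 without WT replicate 2, KO replicate 2 or KO replicate 3. The calls of Nr1d1 and Clock were lost in FPKM fits (0.0709 in 1 such fit for Nr1d1, 0.159 to 0.297 for Clock). Among 14 genes of stress signalling and the mTOR pathway beside Ddit4, 5 were called higher, where 11.5% of all tested genes were. Their median log2 change was 0.125. The 4 with the smallest p were Eif4ebp1 (log2 change 0.77), Mtor (0.93), Tsc2 (0.33) and Tsc1 (0.60), parts of or regulators around the mTOR kinase. Of the 8 listed genes for SGK1 substrates and the sodium channel, 5 were tested, with a median of -0.17. Ndrg2, an SGK1 substrate, rose (0.50), whereas Nedd4 and Ndrg1, the latter also an SGK1 substrate, fell by 0.35 and 0.34. In the FPKM fits neither Nedd4 nor Ndrg1 was called.

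The paralogs of the members were read in the same way. Of 18 tested, 1 was higher and 6 lower, where 11.5% and 10.5% of all tested genes were, with a median log2 change of -0.26. Klf2 and Klf4, the flow-responsive factors of endothelium, fell by 0.82 and 0.90 on the log2 scale and Klf5 by 2.42, while Klf15 rose. Fkbp1a, the FK506-binding protein FKBP12, fell by 0.62. Tsc22d1, a paralog of Tsc22d3, was the 1 called higher (log2 change 0.33, edgeR adjusted p = 0.00263).

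**Figure D4:**
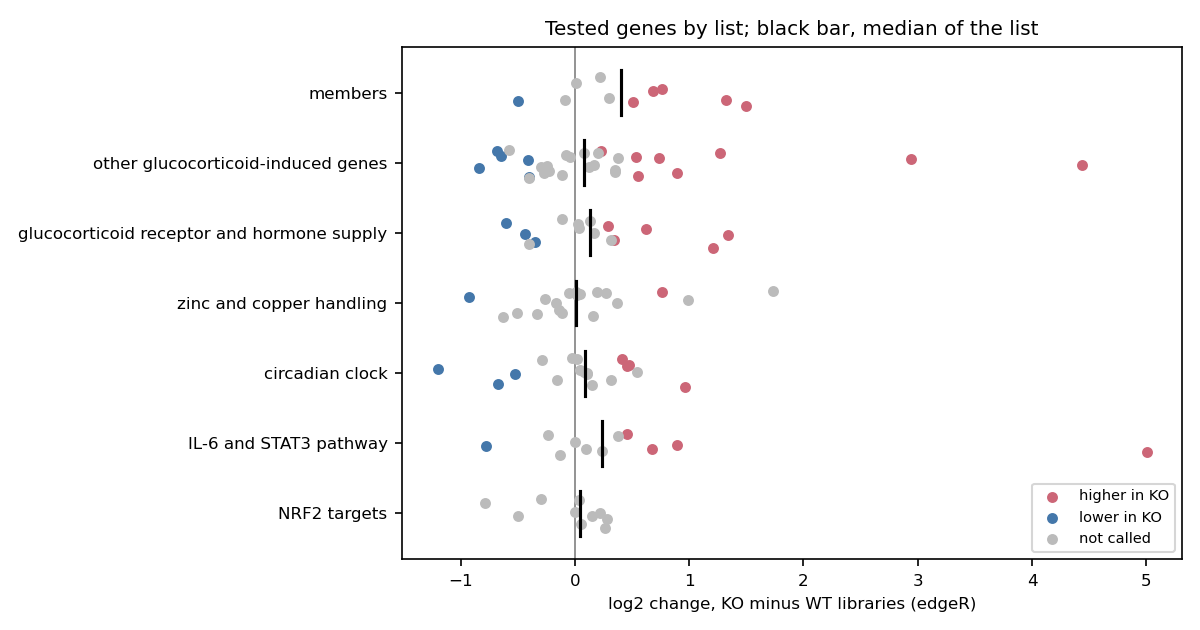
Log2 change from edgeR of every tested gene, 1 point a gene, with a black bar at the median of each list. The lists are the members, other glucocorticoid-induced genes, receptor and hormone supply, zinc and copper handling, circadian clock, IL-6 and STAT3, and NRF2. The members' median is 0.41, and the other glucocorticoid-induced genes spread to both sides of 0 around 0.08.

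Inflammatory genes that share inducers with metallothioneins were also read. Of 12 genes of the IL-6 and STAT3 pathway 11 were tested, with 4 higher, 1 lower and a median log2 change of 0.24. Over all tested genes 11.5% were higher and 10.5% lower. Saa3, an acute-phase serum amyloid, went from 1.09, 1.0 and 1.74 CPM to 39.8, 45.7 and 37.4 CPM (log2 change 5.0, SE 0.19, edgeR adjusted p = 3.42e-08). Osmr, the oncostatin M receptor, rose 1.59-fold and Socs3, a feedback inhibitor of STAT3, 1.86-fold, while Fgl2 fell by 0.78 on the log2 scale. The call for Fgl2 was lost without WT replicate 3 (adjusted p = 0.0627) and in the 3 limma fits to FPKM (0.0587 to 0.191). That for Socs3 was lost without WT replicate 1, KO replicate 2 or KO replicate 3, and the number of genes higher was 2 without WT replicate 1 or KO replicate 3. Among 10 genes around NRF2, the oxidative stress factor that can also act on metallothioneins, edgeR called 0 after adjustment. Over all tested genes 22% were called in either direction. Beside targets, the list held Nfe2l2, which encodes NRF2, and Keap1, which encodes its repressor. At an unadjusted p under 0.05 edgeR gave 2 genes, the target Srxn1 and the repressor gene Keap1. DESeq2 called 2 genes of the list, and limma on log2(FPKM + 1) called 2.

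Markers of other cell types differed between the groups alongside the members. Beside the counts called in each list, 11.5% of all tested genes were called higher and 10.5% lower. Neutrophil markers summed to 5.26 to 6.21 CPM under the WT label and 26.6 to 30.5 CPM under the KO label, with 4 higher and 1 lower of 7 tested. Retnlg was at 0 in every WT library and Camp at 0 in all 6 libraries. Adrenal cortex markers, mainly steroid-synthesis genes of the tissue that makes corticosterone, summed to 14.3 to 17.8 CPM and 2.08 to 3.43 CPM. Star, Cyp21a1, Hsd3b1 and Cyp11b1 were the 4 of 6 tested that were called lower. The call for Cyp11b1 was lost with DESeq2 (adjusted p = 0.124). It was also lost in edgeR without any 1 WT replicate, KO replicate 2 or KO replicate 3 (adjusted p 0.0521 to 0.126). Hepatocyte markers summed to 164 to 172 CPM and 73.2 to 74.2 CPM (7 of 8 lower), and macrophage markers to 212 to 222 CPM and 148 to 155 CPM (5 of 10 lower). Fibroblast markers summed to 1260 to 1286 CPM and 593 to 601 CPM (11 of 12 lower) and erythroid markers to 491 to 502 CPM and 174 to 185 CPM (5 of 5 tested lower). Brown adipocyte markers summed to 838 to 852 CPM and 931 to 997 CPM (4 higher and 3 lower of 10) and adipocyte markers to 2469 to 2525 CPM and 2325 to 2405 CPM (4 higher and 4 lower of 10). Of the skeletal muscle markers whose sums are given above, Myh4, a fast myosin, among them, 12 were higher and 5 lower of 20. Smooth muscle markers were lower for 9 of 10, endothelial markers summed to 678 to 702 CPM and 646 to 655 CPM (2 higher and 4 lower of 10), and cardiac markers to 682 to 733 CPM and 311 to 339 CPM (1 higher and 2 lower of 6 tested). The part of these differences in the members' changes was not tested.

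**Figure D5:**
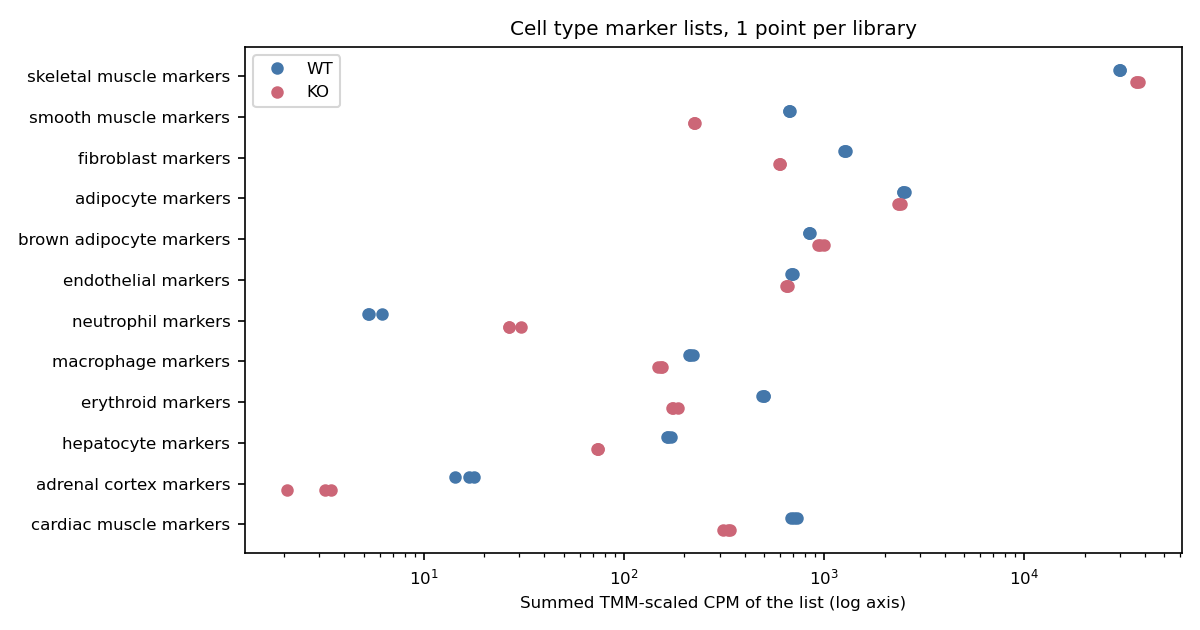
Summed TMM-scaled CPM of 12 cell type marker lists on a log axis, 1 point a library, coloured by label. The groups are apart on every list: neutrophil, skeletal muscle and brown adipocyte markers are higher under the KO label and the other lists lower.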

How the data were processed

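Poly(A) RNA of 6 mouse aorta libraries was sequenced with paired-end reads, per the labels' protocols, which also speak of an adipose type. The authors deposited 1 table of 33919 genes with whole-number gene counts, not normalized, and FPKM, per the file headers; the sources used here do not say how FPKM was computed. Bowtie 0.12.2, HISAT2 2.0 and the build mm8 stand in the submitters' processing notes, with no role given. The gene coordinates were identical to GENCODE release 21 (GRCm38) for 91.2% of 33815 shared genes and for 9 of 10 members, so positions are given as GRCm38. The table held 0 columns that could not be tied to a sample and 0 rows without a gene name.

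Counts were tested with edgeR 4.0.16 in R 4.3.3 (filterByExpr, TMM scaling, quasi-likelihood F-test on the group, 2-sided, Benjamini-Hochberg adjustment over 16620 genes, threshold 0.05). The SE of a log2 change was its size divided by the square root of F, and CPM is TMM-scaled. The code was tested on simulated counts. The members and gene lists were chosen with earlier results of these data known. Beside the members, the genes of the receptor list, Mt3, Mtf1, Slc30a1 and Otud1, up to 4 genes per list with the smallest p were named, of which 1 is not reported here; Retnlg and Camp were named after their values were seen, for being at 0. Alternatives were DESeq2 1.42.0, its size factors, other count filters, removal of mitochondrial genes and their copies, counts divided by 4, robust empirical Bayes, a replicate block, each library left out, and limma 3.58.1 on log2(FPKM + 1) or log2(FPKM + 0.1) with a mean FPKM of at least 0.5, or with no filter. Promoter windows were taken from RefSeq (GRCm38.p6). Figures were drawn with matplotlib 3.10.9.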

Additional observations from a re-analysis of the deposited data

How the results depend on the processing

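Between 5 and 8 of the 10 members were called over 17 alternatives (4 to 7 higher, and 1 lower, Sgk1, in each). Over all genes the main fit called 3658 of 16620. Where 8 members were called, DESeq2 called 5263 of 20769 genes and robust empirical Bayes 3892 of 16620. Limma called 3558 of 10726 on log2(FPKM + 1) and 3494 of 10726 on log2(FPKM + 0.1), also with 8 members. Where 5 members were called, the genes called were 3076 of 17427 (without WT replicate 2) and 2895 of 17449 (without KO replicate 2). Mt1, Mt2, Fkbp5, Klf15 and Sgk1 kept direction and call in all 17. Of 170 member values, 149 kept direction and side of the threshold, 11 passed it newly (Per1 and Klf9), 4 missed it (Zbtb16) and 6 changed sign. The sign changed for Tsc22d3 with a mean CPM of at least 1 (-0.0129), with counts divided by 4 (-0.00266) and without KO replicate 2 (-0.0195; -0.0195 to 0.036 over the libraries left out), and for Ddit4 with limma on log2(FPKM + 1) (0.0618), on log2(FPKM + 0.1) (0.0671) and with no filter (0.0618). Among the other genes it changed for Ncoa1 in the same 3 fits (0.013, 0.0322 and 0.013) and without KO replicate 1 (0.00605; -0.215 to 0.00605), for Nrip1 without KO replicate 3 (-0.0737; -0.0737 to 0.33), for H6pd without WT replicate 2 (-0.0544) and without KO replicate 3 (-0.0128; -0.0544 to 0.105), and for Mtf1 without WT replicate 3 (0.15; -0.523 to 0.15); none of these was called, and the cause was not tested. Over all genes, 1751 were lower under the KO label, 2647 with DESeq2, 824 with limma on log2(FPKM + 1), 808 on log2(FPKM + 0.1) and 754 with no filter; the median change of all genes in these 3 fits was 0.112, 0.173 and 0.006. Leaving out a library gave 2878 to 3171 called genes against 3658. Clock genes called higher numbered 2 with DESeq2 size factors, with no count filter and with mitochondrial genes removed.

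The labels do not say whether a replicate number pairs a WT with a KO library. Same-numbered deviations correlated at 0.024, -0.009 and 0.018, and not every library correlated best with its own number. With 3 libraries a group these values cannot decide whether libraries shared a litter or day. With the replicate block 6 members and 3255 genes were called. Depth was lowest for Zbtb16, with 290 to 752 counts a library.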
